A study of Mus musculus with 6 samples.

Results

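The p53 target genes Cdkn1a, Mdm2, Plk2, Phlda3, Gadd45a, Ccng1, Bax, Perp, Sesn2 and Trp53inp1 were followed in mouse embryonic stem cells that differentiated with and without Noggin. The members were these 10 gene symbols, and all probes annotated to them were taken. Of the 10 genes, 9 had a probe, against 13165 genes in all, and they were read by 15 probes. Bax, which encodes a protein that opens the mitochondrial membrane in apoptosis, was not analysed here, and neither was Trp53, the gene of p53 itself. Total RNA of J1 embryonic stem cells was hybridised to 6 one-colour bead arrays, 1 each for Noggin and mock at days 0, 2 and 4. Noggin, a secreted protein that blocks bone morphogenetic proteins, was used at 150 ng/ml for 3 days before the cells were aggregated into embryoid bodies, and was taken away on the second day of aggregation. Day 0 denotes cells in culture with leukaemia inhibitory factor, and days 2 and 4 denote embryoid bodies without it, so time and culture form cannot be told apart. The labels leave unsettled whether the day 0 Noggin array was taken before or after the Noggin days, and they name the Noggin treatment for the mock samples too, whose group was therefore taken from their source name. J1 is a single cell line, and the labels name no genetic change in any group.

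The transcription factor p53 is activated by DNA damage and other stress, and in embryonic stem cells it is abundant even without such stress. Its target genes include a feedback inhibitor, Mdm2, genes that halt the cell cycle, and genes that promote or restrain cell death. It binds DNA as a tetramer at a pair of half-sites, each a 10-base palindrome.

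Promoter sequences from RefSeq (GRCm38.p6), 250 bases before to 50 after a gene start, were found for 8 of the 10 genes, in 9 windows. They are shown because several members moved together across the days. Each window was searched for the exact p53 consensus half-site, a palindrome that reads the same on both strands, and for 2 half-sites with at most 13 bases between them. An exact half-site was present in windows of 5 of the 8 genes (Cdkn1a, Mdm2, Gadd45a, Ccng1 and Bax), and in 8.36% of all 32851 promoter windows. The 4 windows of measured genes that hold one are printed 5′ to 3′ with the half-sites in capitals.
Cdkn1a, upstream start, chr17:29090729-29091028, plus strand: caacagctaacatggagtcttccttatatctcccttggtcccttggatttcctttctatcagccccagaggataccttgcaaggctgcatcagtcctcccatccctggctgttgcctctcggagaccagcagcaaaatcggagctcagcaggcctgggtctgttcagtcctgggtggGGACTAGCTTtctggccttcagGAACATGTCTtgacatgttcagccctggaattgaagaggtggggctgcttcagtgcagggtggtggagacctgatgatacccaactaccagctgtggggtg
Mdm2, chr10:117710709-117711008, minus strand: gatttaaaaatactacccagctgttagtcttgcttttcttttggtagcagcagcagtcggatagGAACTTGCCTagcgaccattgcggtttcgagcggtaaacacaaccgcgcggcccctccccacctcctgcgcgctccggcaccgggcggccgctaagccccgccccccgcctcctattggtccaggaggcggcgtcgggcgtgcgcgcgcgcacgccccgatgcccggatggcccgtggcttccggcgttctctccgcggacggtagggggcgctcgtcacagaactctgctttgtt
Gadd45a, chr6:67037358-67037657, minus strand: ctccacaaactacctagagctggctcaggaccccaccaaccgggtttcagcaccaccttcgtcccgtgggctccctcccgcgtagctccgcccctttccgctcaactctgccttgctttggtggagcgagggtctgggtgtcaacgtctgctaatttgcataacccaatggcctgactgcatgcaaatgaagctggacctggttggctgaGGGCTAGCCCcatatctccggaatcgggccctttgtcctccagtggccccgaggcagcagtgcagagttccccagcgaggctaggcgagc
Ccng1, chr11:40755237-40755536, minus strand: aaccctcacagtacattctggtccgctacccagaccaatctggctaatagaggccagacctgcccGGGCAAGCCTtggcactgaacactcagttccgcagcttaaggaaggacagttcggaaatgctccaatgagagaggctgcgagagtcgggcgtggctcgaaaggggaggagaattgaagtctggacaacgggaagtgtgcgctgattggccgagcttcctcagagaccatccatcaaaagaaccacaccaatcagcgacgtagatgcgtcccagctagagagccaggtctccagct
In the Cdkn1a window the exact half-sites lie at positions -73 to -64 and -51 to -42, where -1 is the last base before the start. They are 12 bases apart, and an exact pair of this kind was found in 24 of the 32851 windows, or 0.0731%. The second of them is followed directly by 10 bases that match the half-site at all but 1 position, giving the 20-base stretch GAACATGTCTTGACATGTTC. Such a pair with at most 1 mismatch in all was found in 1.09% of windows, and among the members also in those of Ccng1 and Bax. This start of Cdkn1a lies 2790 bases upstream of its other start, whose window holds no exact half-site. The windows of Plk2, Phlda3 and Sesn2 hold none either, which says only that these letters are not in these windows. A match describes the sequence and is no evidence of binding.

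Across the 6 arrays, median signals were 152 to 176.55 over lowest signals of 91.4 to 101.4. Quantile-normalised log2 values of 15364 probes, kept where 2 or more arrays were above their own median, were fitted with limma on day and treatment together. Each gene was represented by its probe with the highest average, and 8903 genes were tested in this way. Of the 9 measured members, 8 lay above the array median on all 6 arrays, and Sesn2 lay below the filter. The labelled cell type was checked against stem cell markers, of which 16 of 18 had a probe and 13 were above the median on all 6 arrays. At day 0, Nanog gave signals of 12046.4 on Noggin and 10527 on mock, and Pou5f1 gave 1848.6 on Noggin and 1939.2 on mock. Of 13 fibroblast markers, 8 had a probe and 3 were above the median on all 6 arrays. Several were well above the array median at day 0, where Dcn gave 2177.8 on Noggin and 1467.1 on mock. Fn1 gave 1059.6 on Noggin and 1055.5 on mock. Others were not, and Col1a1 gave 179.7 on Noggin and 157.2 on mock, beside array medians of 169.4 on Noggin and 167.35 on mock. Whether the arrays stem from separate cultures is not stated, so p-values measure only the spread between these arrays. In such bulk samples, fewer cells of a type and less RNA per cell cannot be told apart.

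Of the 8 tested members, each read by its brightest probe, 7 were lower at day 4 than at day 0, by 1.78-fold to 3.75-fold. Perp was the exception. The fall was in progress by day 2 for Cdkn1a, Mdm2, Phlda3 and Plk2, and went on to day 4. The plot of signals by day shows both treatments following the same course for these 4 genes.

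**Figure D1:**
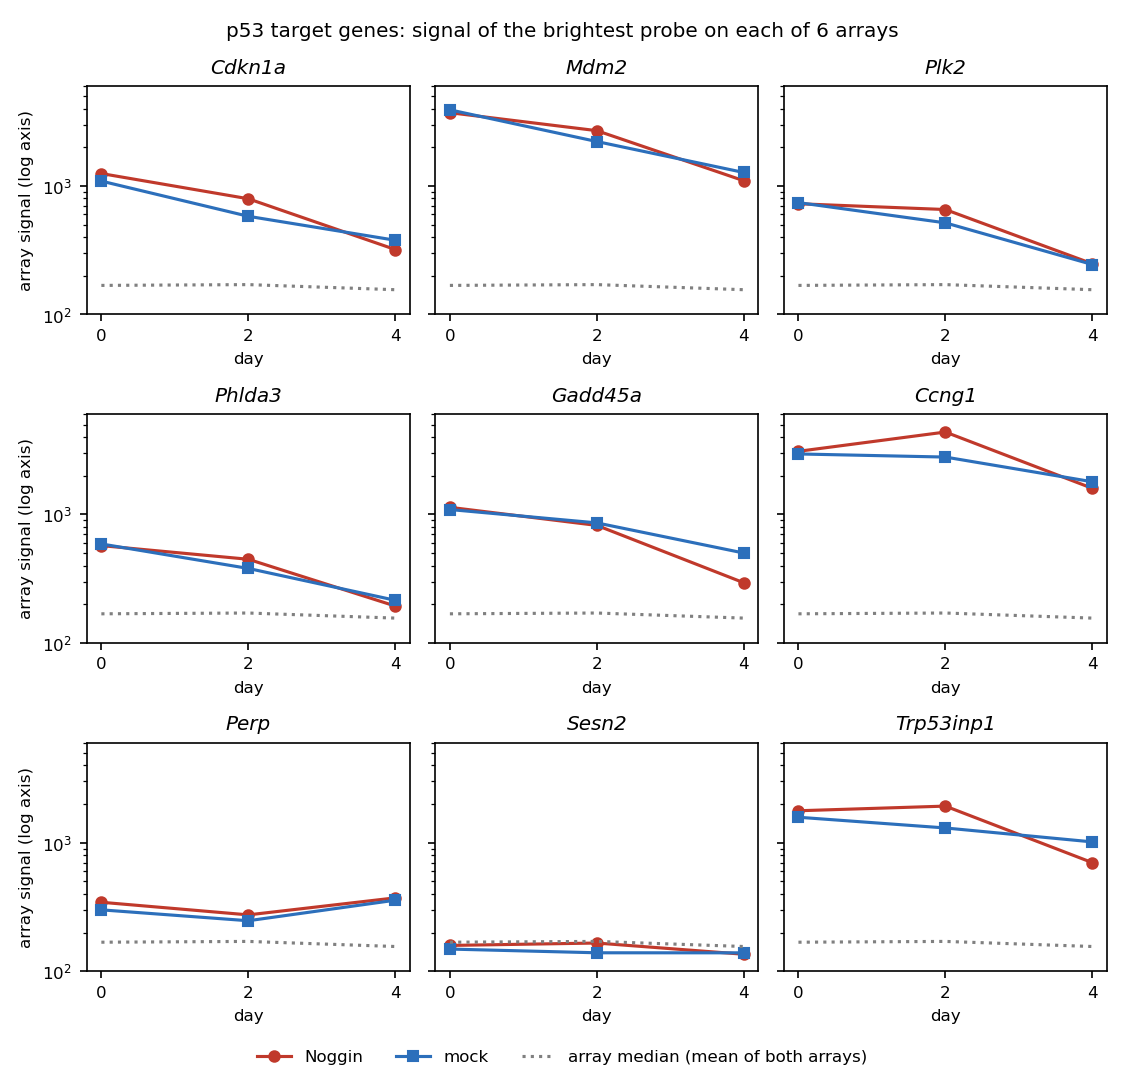
Array signal (log axis) of the brightest probe of each measured p53 target gene against day, with 1 array per point, Noggin as red circles and mock as blue squares. The dotted line is the array median, averaged over both arrays of a day. Cdkn1a, Mdm2, Plk2, Phlda3 and Gadd45a decline in both treatments, Perp dips at day 2, and Sesn2 stays near the median.

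Mdm2 encodes the ubiquitin ligase that binds p53 and marks it for destruction, and is itself induced by p53. Its brighter probe gave 3719.5 on the Noggin and 3914.7 on the mock array at day 0, 2695.1 on Noggin and 2218 on mock at day 2, and 1098.9 on Noggin and 1273.8 on mock at day 4. The arrays of the 3 days did not overlap, and each later day was lower. On the log2 scale Mdm2 fell by 0.80 to day 2 (SE 0.114, limma adjusted p = 0.00577) and fell by 1.73 to day 4 (SE 0.114, limma adjusted p = 0.000622), both against day 0. The day 4 value is 3.33-fold lower, with a 95% interval of -2.01 to -1.46 on the log2 scale. A dimmer probe, with signals from 172.5 to 285.6, fell by 0.87 to day 4 (SE 0.105, limma adjusted p = 0.00245). The related gene Mdm4, whose protein restrains p53 activity together with Mdm2, fell by 1.12 to day 4 (SE 0.125, limma adjusted p = 0.00203). Its brightest probe gave 423.6 on Noggin and 390.4 on mock at day 0, 313.9 on Noggin and 304.2 on mock at day 2, and 200.6 on Noggin and 222.5 on mock at day 4, while its other probes stayed at 137 to 177.2.

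Cdkn1a encodes p21, the inhibitor of cyclin-dependent kinases through which p53 halts the cell cycle. Its brighter probe gave 1249.9 on the Noggin and 1091.6 on the mock array at day 0, 795.5 on Noggin and 580.9 on mock at day 2, and 320.3 on Noggin and 378.3 on mock at day 4. Again the days did not overlap. The fall against day 0 was 1.89-fold at day 2 (log2 difference -0.92, SE 0.154, limma adjusted p = 0.00931) and 3.75-fold at day 4 (log2 difference -1.91, SE 0.154, limma adjusted p = 0.000904). The other probe gave log2 differences of -0.68 and -1.70, both past the threshold of 0.05.

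Plk2 encodes a polo-like kinase that acts in centriole duplication and in the response to stress. Signals were 727.5 on the Noggin and 742.4 on the mock array at day 0, 655.9 on Noggin and 516.5 on mock at day 2, and 248.2 on Noggin and 244.9 on mock at day 4. Most of its fall came after day 2. The log2 difference was -0.43 at day 2 against day 0 (SE 0.114, limma adjusted p = 0.0391) and -1.37 at day 4 against day 2 (SE 0.114, limma adjusted p = 0.00229), a 2.59-fold fall. The day 2 against day 0 difference did not pass under median scaling, at -0.37 (limma adjusted p = 0.112), or with a background offset of 16, at -0.45 (limma adjusted p = 0.0591).

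Gadd45a encodes a stress-induced protein that acts in growth arrest, DNA repair and kinase signalling. Its probe gave 1134.9 on the Noggin and 1090.9 on the mock array at day 0, 821 on Noggin and 858.8 on mock at day 2, and 293.8 on Noggin and 500.4 on mock at day 4. Each later day was lower without overlap, and the day 4 arrays were far apart. The log2 difference at day 2 against day 0, -0.51 with a 95% interval of -1.02 to 0, did not pass (SE 0.207, limma adjusted p = 0.12). The day 4 arrays enter this comparison only through its spread, so leaving out either one of them could not change the -0.51. At day 4 the fall against day 0 was 3.18-fold (log2 difference -1.67, SE 0.207, limma adjusted p = 0.0026).

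Phlda3 encodes a small lipid-binding protein that restrains the survival kinase Akt. Signals were 571.5 on the Noggin and 588.9 on the mock array at day 0, 447.5 on Noggin and 379.7 on mock at day 2, and 193.6 on Noggin and 214.6 on mock at day 4. The days did not overlap, and the day 4 signals came close to the array medians of 159.8 on Noggin and 152 on mock. Its fall to day 4 was 3.45-fold against day 0 (log2 difference -1.78, SE 0.12, limma adjusted p = 0.000669). Signals this close to the floor compress a fold, for Plk2 as well as for Phlda3.

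Trp53inp1 encodes a stress protein that promotes p53 activity and autophagy. Its probe gave 1775.4 on the Noggin and 1580.5 on the mock array at day 0, 1929.6 on Noggin and 1304.3 on mock at day 2, and 700.7 on Noggin and 1016.1 on mock at day 4. Days 0 and 2 overlapped, and both day 4 arrays were below them. Against day 0, the log2 difference was -0.16 at day 2 (SE 0.208, limma adjusted p = 0.607) and -0.99 at day 4 (SE 0.208, limma adjusted p = 0.0139). Against day 2 the day 4 value differed by -0.82 (SE 0.208, limma adjusted p = 0.0355), which became -0.91 under median scaling (limma adjusted p = 0.053) and -0.85 with a background offset of 16 (limma adjusted p = 0.0508). This day 4 against day 2 difference also did not pass without any 1 of the arrays of days 0 and 2, at -0.56 without the day 2 Noggin array (limma adjusted p = 0.254). Without the day 4 Noggin array, which leaves 1 array on that day, the falls were smaller, at -0.45 against day 2 and -0.61 against day 0.

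Perp encodes a desmosomal membrane protein of epithelia that p53 and its relative p63 induce. Signals were 344.5 on the Noggin and 300.7 on the mock array at day 0, 274.8 on Noggin and 247.4 on mock at day 2, and 372.7 on Noggin and 357.4 on mock at day 4. Day 2 was lowest and day 4 highest, with no overlap between days. On the log2 scale Perp fell by 0.42 to day 2 (SE 0.112, limma adjusted p = 0.0378) and rose by 0.72 between day 2 and day 4 (SE 0.112, limma adjusted p = 0.00981), 1.64-fold. Its difference at day 4 against day 0, 0.29 with an interval of 0.02 to 0.57, did not pass (limma adjusted p = 0.0853). Under median scaling the difference at day 2 was -0.40 and did not pass (limma adjusted p = 0.0618).

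Ccng1 encodes cyclin G1, which recruits a phosphatase to Mdm2, and its 4 probes did not give the same course. The brightest probe gave 3097.2 on the Noggin and 2953.6 on the mock array at day 0, 4374.4 on Noggin and 2793.4 on mock at day 2, and 1595.5 on Noggin and 1794.3 on mock at day 4. The second gave 1179 on Noggin and 1124.5 on mock at day 0, 2473.5 on Noggin and 1497.6 on mock at day 2, and 850.1 on Noggin and 985.9 on mock at day 4. The third gave 1099.7 on Noggin and 1053.4 on mock at day 0, 2398.4 on Noggin and 1426.3 on mock at day 2, and 797.5 on Noggin and 984.4 on mock at day 4. All 3 were highest on the day 2 Noggin array and lowest on the day 4 Noggin array. Against day 0, the second and the third probe rose at day 2 by 0.71 (SE 0.176, limma adjusted p = 0.0316) and 0.75 (SE 0.197, limma adjusted p = 0.0369), and the brightest differed by 0.11 (SE 0.155, limma adjusted p = 0.647). At day 4 against day 0 the brightest fell by 0.83 (SE 0.155, limma adjusted p = 0.00936), whereas the second differed by -0.29 (limma adjusted p = 0.243) and the third by -0.23 (limma adjusted p = 0.408). The mean over all 4 probes gave -0.37 there, which did not pass (limma adjusted p = 0.0885). From day 2 to day 4 the 3 probes moved alike, with log2 differences of -0.94, -0.99 and -0.98 that all passed. The fourth probe, with signals of 137.3 to 167.4, lay below the filter.

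**Figure D2:**
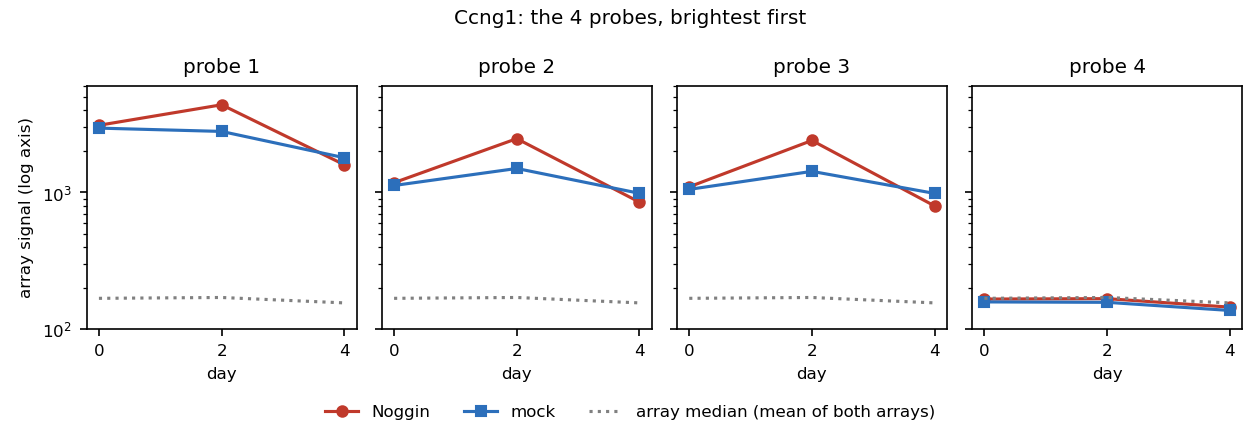
Array signal (log axis) of the 4 Ccng1 probes against day, with 1 array per point, Noggin as red circles and mock as blue squares, and the array median dotted. The 3 brighter probes peak on the day 2 Noggin array at 4374.4, 2473.5 and 2398.4, and the fourth stays near the median.

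Sesn2 encodes sestrin 2, a stress protein that restrains mTORC1 signalling when leucine is scarce. Its probes gave signals of 135.7 to 165.9 and of 114.2 to 163.8 on the 6 arrays, below the median of each array, and it was not tested. No fold is given for it, since values there are set by the floor.

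Counted together, 7 of the 8 members above the filter were called lower at day 4 against day 0 and 0 higher, with a median log2 difference of -1.70. Ccng1 is among the 7 by its brightest probe only, and the mean over a gene's probes gave 6. Over all 8903 genes, 19.7% were called lower and 22.1% higher, with a median of 0. At day 2 against day 0, 5 members were called lower and 0 higher (median -0.47), against 14.6% of genes called lower and 15.4% higher (median 0). At day 4 against day 2, 7 were called lower and Perp higher (median -0.96), against 13% of genes lower and 15.1% higher (median -0.01). These 3 comparisons share arrays, and each day has only 2. The members were chosen with earlier results of these data known, so the counts beside all genes are descriptive.

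**Figure D3:**
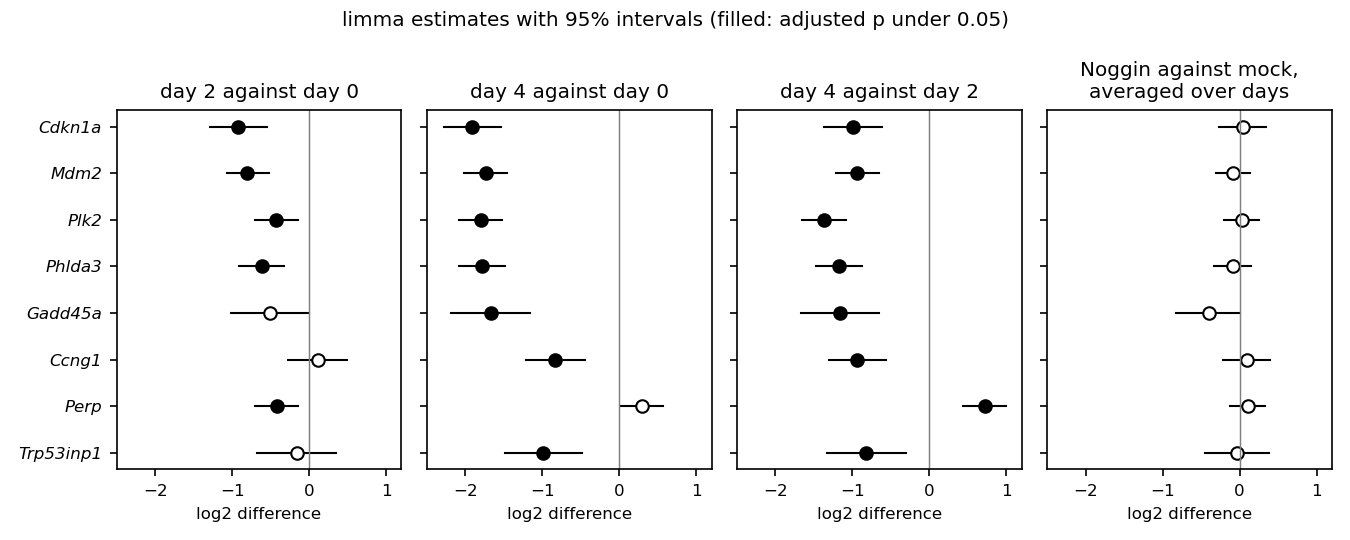
Log2 differences of the 8 tested p53 target genes, each by its brightest probe, in 4 limma contrasts. Lines are 95% intervals, and filled points mark an adjusted p under 0.05. In day 4 against day 0, 7 genes lie between -1.91 and -0.83 and Perp at 0.29, while in Noggin against mock averaged over days every interval includes 0.

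Calls depended on single arrays. Without any 1 of the day 0 and day 2 arrays, which leaves 1 array on that day, limma called 0 of 8 members at day 2 against day 0. The unadjusted p was then under 0.05 for 4 or 5 members. Calls fell over all probes too, to 363 to 1056 of 15364 in these fits, against 4207 with all arrays. Under median scaling 3 members were called there. At day 4 against day 2, limma called 0 without the day 2 Noggin array (7 at an unadjusted p under 0.05) and 3 lower without the day 2 mock array. Over all probes these fits called 148 without the day 2 Noggin array and 368 without the day 2 mock array, against 3954 with all arrays. At day 4 against day 0, no member changed sign whichever array was left out. Cdkn1a ranged from -2.14 to -1.67, Ccng1 from -1.01 to -0.65 and Trp53inp1 from -1.36 to -0.61. Ccng1 and Trp53inp1 no longer passed without either day 0 array. In every day comparison, calls over all probes fell without a day 0 or day 2 array and rose without a day 4 array.

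Markers of cell state changed over the same days. Of 16 stem cell markers above the filter, 13 were called lower at day 4 against day 0 and 0 higher, with a median of -2.01. Of all genes, 19.7% were called lower there and 22.1% higher. At day 4 against day 2, 3 stem cell markers were called lower and 0 higher, with 12 of 16 negative and a median of -0.65. Of all genes, 13% were called lower there and 15.1% higher. Between day 2 and day 4 the summed signal of stem cell markers fell on the Noggin arrays and not on the mock arrays. Their summed signal was 64560.3 on the Noggin and 61221.2 on the mock array at day 0, 22758.5 on Noggin and 23718.9 on mock at day 2, and 11550.8 on Noggin and 24247.9 on mock at day 4. Fibroblast markers, with 8 of 13 on the arrays, summed to 6022.9 on Noggin and 5196.2 on mock at day 0, 2812.8 on Noggin and 2312.8 on mock at day 2, and 2975.8 on Noggin and 2117.8 on mock at day 4. Mesoderm markers, with 8 of 13 on the arrays, summed to 12071.9 on Noggin and 3149.8 on mock at day 4, against 1593.7 to 1863.2 on the earlier arrays. Endoderm markers, with 8 of 12, summed to 5328.8 on Noggin and 3250.4 on mock at day 4, against 1572.5 to 1976.9 before. Neuroectoderm markers, with 8 of 10, summed to 3440.9 on Noggin and 4711.2 on mock at day 4, against 1937.7 to 3760 before. Of these 8, only 2 were above the median on all 6 arrays. Otx2 alone gave 2327.5 on Noggin and 3575.6 on mock at day 4. The part of these markers in the falls of the p53 target genes was not tested.

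Noggin against mock, averaged over the 3 days, called none of the 8 members. Limma called 0 of 8903 genes, 0%, and 468 of 15364 probes, none of them a representative of a member, had an unadjusted p under 0.05 (smallest adjusted p 0.969). With 1 array a group, the spread in this fit is how far the Noggin difference varies between days. A Noggin difference on only 1 day widens that spread, so 0 calls do not show that Noggin had no effect. At day 4 alone, 2.75% of genes above the median on both arrays differed by 2-fold or more. The log2 differences ran from -0.40 for Gadd45a to 0.11 for Perp, with 4 positive and 4 negative. The interval of Gadd45a was -0.82 to 0.01, and that of Mdm2 was -0.31 to 0.14. Other members had intervals within -0.45 to 0.40.

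On single days, with 1 array a group and therefore no test, the direction of the differences changed between days. At day 0 the members differed by -0.11 to 0.21, and 0 of 8 differed by 2-fold or more (all genes above the median on both arrays, 0%). At day 2 the Noggin array was higher for 7 of 8 members, though Mdm2, at 0.03, turned to -0.02 with the mean of its probes. The members' median was 0.10 beside -0.02 over all genes, of which 53.8% were lower on Noggin. Among the members 0 reached 2-fold (all genes 0.0389%). Ccng1 was highest at 0.40, followed by Trp53inp1 at 0.32 and Cdkn1a at 0.24 (0.07 by its other probe), and Gadd45a was lowest at -0.32. Of 7709 genes above the median on both arrays, 103 lay higher than Ccng1 and 364 lay lower than Gadd45a. Under median scaling, which puts the median of all probes at 0.10 on this day, Ccng1 stood at 0.59 and Cdkn1a at 0.42.

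At day 4 the Noggin array was lower for 6 of 8 members, and Plk2, at 0.02, turned to -0.05 under median scaling. The members' median was -0.21 beside 0.03 over all genes, of which 45.5% were lower on Noggin. No member reached 2-fold, against 2.75% of genes. Gadd45a stood at -0.88, with signals of 293.8 on Noggin against 500.4 on mock, and 135 of 7740 genes lay lower. Trp53inp1 stood at -0.53, with 388 genes lower, and Cdkn1a at -0.28 by both of its probes. Plk2 at 0.02 and Perp at 0.10 were the other two. The difference of the Noggin effect between days was not tested, as no residual degrees of freedom are left for it.

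**Figure D4:**
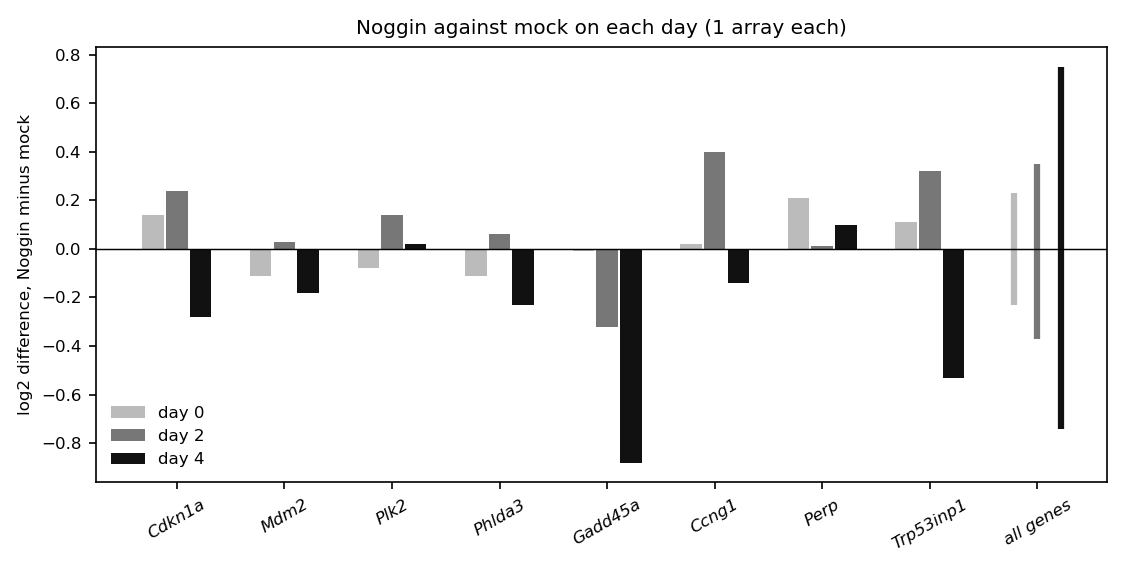
Log2 difference, Noggin minus mock, of the 8 tested p53 target genes on each day, light to dark from day 0 to day 4, with 1 array per group. The lines on the right span the middle 95% of all genes above the median on both arrays, -0.23 to 0.23 at day 0, -0.37 to 0.35 at day 2 and -0.74 to 0.75 at day 4. Ccng1 at day 2 and Gadd45a at day 4 lie outside them.

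Within each treatment the course can be read side by side. From day 0 to day 4, Gadd45a differed by -2.10 on the Noggin arrays and -1.24 on the mock arrays, and Trp53inp1 by -1.31 on Noggin and -0.67 on mock. Mdm2 differed by -1.77 on Noggin and -1.70 on mock, and Plk2 by -1.75 on Noggin and -1.85 on mock. These values share their day 0 and day 4 arrays with the tested contrasts and have no test of their own.

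Other genes of the p53 pathway were read from lists. Of 46 further p53 targets, 40 had a probe and 32 were tested. At day 4 against day 0, 17 fell and 5 rose, with a median of -0.46 (all genes 19.7% lower and 22.1% higher). Klf4, a pluripotency factor that p53 can induce, fell by 4.46 (SE 0.188, limma adjusted p = 0.000368), and its gene belongs to the stem cell markers as well. Eda2r, which encodes a death-domain receptor, fell by 2.38 (SE 0.321, limma adjusted p = 0.00328), and the thiamine transporter gene Slc19a2 fell by 2.07 (SE 0.109, limma adjusted p = 0.000386). Sesn1, a relative of Sesn2, rose by 0.89 (SE 0.211, limma adjusted p = 0.0206), Pmaip1, which encodes the cell death protein Noxa, rose by 0.81 (SE 0.127, limma adjusted p = 0.00526), and Trp53inp2 rose by 0.66 (SE 0.176, limma adjusted p = 0.0287). At day 2, 7 fell and 4 rose, and between days 2 and 4, 12 fell and 3 rose. Of 31 regulators of p53, 24 were tested. At day 4 against day 0, 5 fell and 3 rose, with a median of -0.16, beside the same shares of all genes. Among them the acetyltransferase gene Crebbp fell by 1.32 (SE 0.152, limma adjusted p = 0.00219), the deacetylase gene Sirt1 fell by 1.07 (SE 0.226, limma adjusted p = 0.0137), and the kinase gene Dyrk2 rose by 0.79 (SE 0.132, limma adjusted p = 0.00646).

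**Figure D5:**
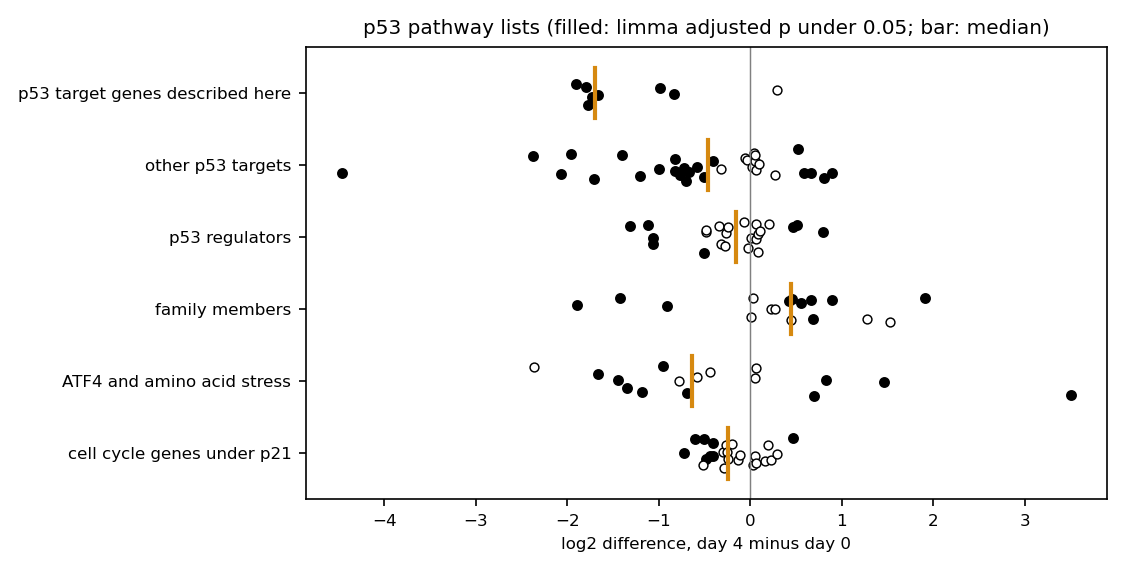
Log2 difference, day 4 minus day 0, of every tested gene in 6 lists, filled where the limma adjusted p was under 0.05, with list medians as orange bars. The p53 target genes described here have a median of -1.70, further p53 targets -0.46, p53 regulators -0.16, gene family members 0.44, ATF4 and amino acid stress genes -0.64, and cell cycle genes -0.25. Members and lists were chosen with earlier results of these data known.

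Relatives of the members in the same gene families did not share one direction. Of 17 tested, 3 fell and 7 rose at day 4 against day 0, with a median of 0.44 (all genes 19.7% lower and 22.1% higher). Plk3, a relative of Plk2, fell by 1.90 (SE 0.161, limma adjusted p = 0.00098), and Gadd45b fell by 0.91 (SE 0.133, limma adjusted p = 0.00415). Cdkn1c, which encodes p57, a kinase inhibitor related to p21, rose by 1.91 (SE 0.27, limma adjusted p = 0.00375). Ccng2, the relative of Ccng1, rose by 0.68 (SE 0.124, limma adjusted p = 0.00893). The survival gene Mcl1 fell by 1.42 (SE 0.129, limma adjusted p = 0.00115).

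Gadd45a and Sesn2 are also induced in amino acid stress, through the factor ATF4, so the genes of that response were read beside them. At day 4, 15 of them were above the median on both arrays. Of these, 13 lay lower on the Noggin than on the mock array, Gadd45a included, with a median of -0.63 and 3 by 2-fold or more. Of all genes above the median on both arrays, 45.5% lay lower, and 2.75% differed by 2-fold in either direction. Among the 15, Chac1 was lowest at -1.91, with signals of 947.2 on Noggin and 3592.4 on mock, and Ddit4 was highest at 0.83. Nupr1, with signals of 131.3 on Noggin and 683.3 on mock, was below the median on the Noggin array and so is not among the 15. At day 4 against day 2, 6 of 16 rose and Gadd45a was the 1 that fell, against 15.1% of all genes higher and 13% lower. Vldlr rose by 2.83 (SE 0.203, limma adjusted p = 0.00176) and Chac1 rose by 2.67 (SE 0.428, limma adjusted p = 0.0104). The part of this response in the Gadd45a values was not tested.

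Cell cycle genes that p21 is known to lower were read beside Cdkn1a. Of 24 tested, 7 fell and 1 rose at day 4 against day 0, with a median of -0.25 (all genes 19.7% lower and 22.1% higher). Ccne1, the gene of cyclin E1, fell by 0.73 (SE 0.106, limma adjusted p = 0.00405), the replication helicase gene Mcm3 fell by 0.61 (SE 0.143, limma adjusted p = 0.0197), and Rrm2, which encodes a ribonucleotide reductase subunit, fell by 0.51 (SE 0.12, limma adjusted p = 0.0194). Ccne2 rose by 0.47 (SE 0.127, limma adjusted p = 0.0305). At day 4 the Noggin array was lower for 15 of the 24 (median -0.05), and for 45.5% of all genes above the median on both arrays.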

How the data were processed

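Per the labels' protocols, total RNA was extracted with Trizol, turned into biotinylated cRNA and hybridised to Illumina Mouse-6 bead arrays stained with streptavidin-Cy3. The deposited array tables hold 1 intensity per probe for 27496 probes, neither background-subtracted nor scaled between arrays as the values show. Scanner software is not given in the sources used here. The authors' series matrix of 27495 probes holds log2 values of quantile-normalised intensities. Matching all 6 values within 0.006 linked 27491 probes to the annotation, and all 2220 clone accessions present on both sides were equal. Of the probes, 19419 had 1 symbol, 6 several and 8071 none.

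Intensities were background-corrected with normexp (offset 50, as no detection values came with the arrays), quantile-normalised and log2-transformed with limma 3.58.1 in R 4.3.3. An additive model of day plus treatment was fitted over all 6 arrays, with 2 residual and 4.05 prior degrees of freedom, and p-values were adjusted by Benjamini-Hochberg over all 15364 probes above the filter. The fit was run on simulated data with independent normal noise at the fitted SDs and shifts added at day 4. This checks the code and cannot show whether the model suits these arrays. Each difference is Noggin less mock, or the later day less the earlier. Intervals are at 95% and calls at an adjusted p of 0.05. On single days the call was a 2-fold difference between arrays that were both above their median.

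Named were all members, Trp53 and Mdm4, up to 3 passing genes per direction in each list, and list extremes on single days, of which the text gives the main ones. Members and lists were chosen with earlier results of these data known. Alternatives were other background corrections, median scaling, the authors' log2 values, other filters, the mean over a gene's probes, a model without the other term, and leaving out each array. The number of arrays limits the precision.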

Additional observations from a re-analysis of the deposited data

Results flagged for a closer look

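Trp53inp1 differed between Noggin and mock in opposite directions on 2 days, at 0.32 on day 2 and -0.53 on day 4 on the log2 scale. Each value was larger than the SD of the differences over all probes above the median on both arrays of that day, which was 0.187 at day 2 and 0.378 at day 4. The signals were 1929.6 on Noggin and 1304.3 on mock at day 2, and 700.7 on Noggin and 1016.1 on mock at day 4. Ccng1, Cdkn1a, Mdm2 and Phlda3 also went from a positive difference at day 2 to a negative one at day 4. The difference between the days was not tested, since each value comes from 1 array a group.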

How the results depend on the processing

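With all 6 arrays kept, the counts of members called in the 4 contrasts stayed within 1.5 times under every alternative but 1. Median scaling gave 3 members called lower at day 2 against day 0, where the fit as reported gave 5. With 1 array left out at a time, that count ranged from 0 to 6. At day 4 against day 2 the members called lower ranged from 0 to 7 and those called higher from 0 to 1, and at day 4 against day 0 those called lower ranged from 5 to 7. A fit without 1 array has fewer residual degrees of freedom, and the lone array left on a day is assumed to vary like the others. Calls over all probes moved too, down without a day 0 or day 2 array and up without a day 4 array. Among tested differences, signs turned only for ones that did not pass. Averaged over days, Noggin against mock became -0.02 for Cdkn1a with the mean of its probes and 0.02 for Trp53inp1 under median scaling. With 1 array left out, these averages ranged from -0.07 to 0.19 for Cdkn1a, -0.06 to 0.21 for Ccng1, -0.03 to 0.08 for Plk2 and -0.21 to 0.21 for Trp53inp1. At day 2 against day 0 they ranged from -0.12 to 0.34 for Ccng1 and from -0.43 to 0.10 for Trp53inp1. The cause was not tested. The labels give no replicate numbers, and the day term already sets Noggin against mock within each day. Without that term 0 of the 8 members were called for Noggin against mock, as with it. Signals near the array median compress the folds of Phlda3 and Plk2 at day 4 and of Sesn2 throughout.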
